A study of Mus musculus with 12 samples.

Results

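The clustered protocadherins are cell-surface adhesion proteins of the cadherin superfamily, encoded in tandem on mouse chromosome 18. The 58 members described here are the genes of both deposited tables whose symbol names a protocadherin of the alpha, beta or gamma cluster, out of 24421 gene rows in each table. They comprise 12 alpha members (Pcdha1 to Pcdha12), 22 beta members (Pcdhb1 to Pcdhb22), 12 gamma A members, 7 gamma B members and 5 C-type members (Pcdhac1, Pcdhac2, Pcdhgc3, Pcdhgc4 and Pcdhgc5). On the mm10 build (GRCm38) they lie on chromosome 18 between positions 36930285 and 37841873, by RefSeq coordinates.

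In the alpha and gamma clusters each member starts at a large variable exon with a promoter of its own, which is spliced to constant exons shared by the whole cluster. Beta members have a variable exon and no constant exons. In neurons, the promoters are chosen largely at random in each cell with the help of CTCF and cohesin, the DNA methyltransferases shape the choice, and the resulting combination of proteins binds to the same combination on another cell. The clusters are known for self-avoidance of dendrites, for axon spacing and for the survival of interneurons. The C-type members are expressed in a more regular manner than the others.

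Messenger RNA was sequenced in 12 mouse libraries, 3 in each of 4 groups. The groups were ZFTA-RELA ependymomas that overexpressed a human variant of ETV5, a transcription factor of the ETS family, ZFTA-RELA ependymomas labelled as overexpressing a human variant of NPY, which encodes neuropeptide Y, ZFTA-RELA ependymomas with no added gene, here called control tumours, and wild-type cortex without tumour. All 3 tumour groups carried ZFTA-RELA, the fusion gene of a class of human ependymoma. How the fusion and the added genes were delivered, the age and strain of the mice, and the number of animals were not given in the sources used here. Thus the p-values describe only how far these libraries vary, which may be technical.

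Recovered depth was 6691146 to 11291057 reads per library in ETV5 tumours, 8214523 to 10481943 in NPY-labelled tumours, 6266613 to 9443466 in control tumours and 5962376 to 7444467 in cortex. Levels are CPM, read counts scaled to the library's total, and log2 fold changes are on the scale of log2(deposited value + 1). Mouse Etv5 stood at 407, 474 and 401 CPM in ETV5 tumours, against 264, 322 and 299.5 CPM in control tumours. Mouse Npy stood at 5.59, 2.19 and 15.9 CPM in NPY-labelled tumours, against 27.2, 21.5 and 46.1 CPM in control tumours. It was also below the control tumours in ETV5 tumours, at 1.44, 18.5 and 4.69 CPM. As the added genes are human variants, the mouse genes do not check the labels, and the libraries labelled NPY are called NPY-labelled. The library codes begin with DS in cortex, control tumours and ETV5 replicates 1 and 2, and with EC in ETV5 replicate 3 and all NPY-labelled libraries. What the prefix means is not stated, and prefix and group cannot be told apart for NPY-labelled against control tumours.

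In control tumours the summed level of all members was 291 ± 33.2 CPM, against 460 ± 25.0 CPM in cortex (SD, n = 3 each). The loss was far from even. The alpha members summed to 3.21 ± 1.23 CPM in control tumours, against 32.8 ± 2.79 CPM in cortex, so that 9.81% of the cortex sum was present. The beta members summed to 91.6 ± 22.1 CPM in control tumours, against 142 ± 10.5 CPM in cortex. For gamma A the sums were 47.3 ± 2.43 CPM in control tumours and 69.1 ± 8.73 CPM in cortex. For gamma B they were 21.6 ± 5.63 CPM in control tumours and 29.4 ± 3.09 CPM in cortex. The C-type members summed to 127 ± 13.1 CPM in control tumours, against 187 ± 15.5 CPM in cortex. On the CPM scale each control tumour library lay below each cortex library in every set but gamma B. On the deposited scale, which the tests used, the gamma B sums did not overlap either.

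**Figure D1:**
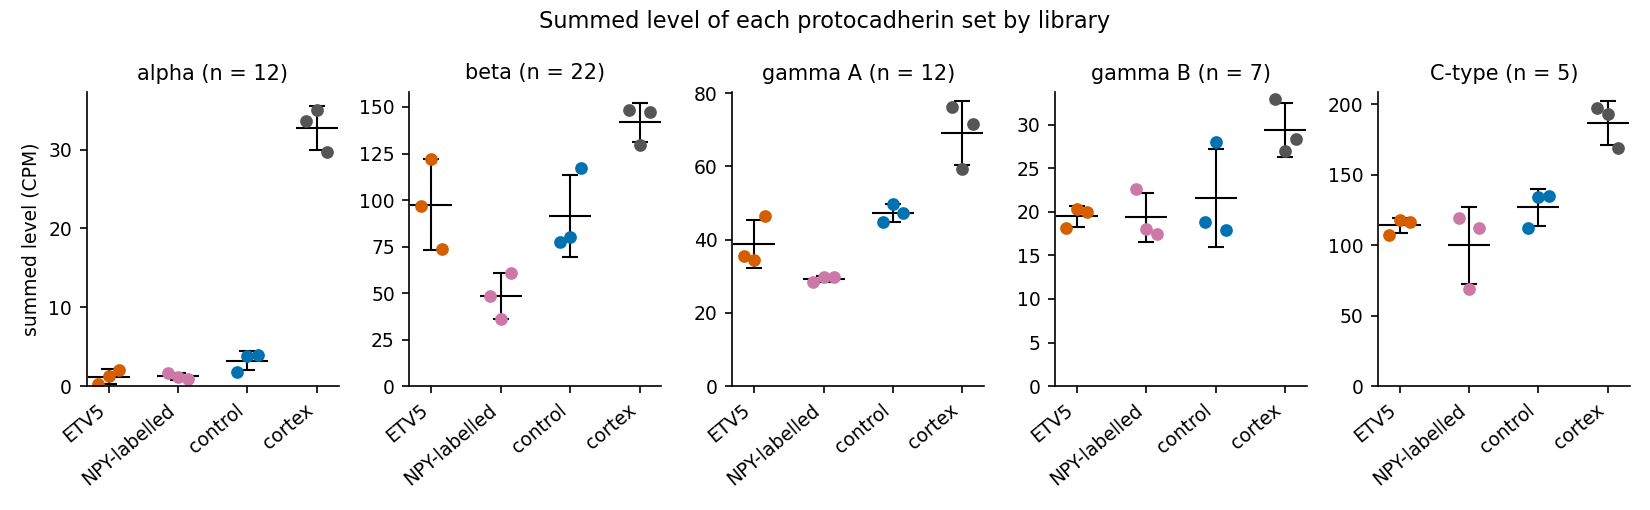
Summed level of each set of clustered protocadherins in CPM (vertical axes from 0, each with its own scale) in the 3 libraries of each group; points are libraries, the horizontal line is the mean and the bar is the SD. Alpha members averaged 1.21 CPM in ETV5 tumours, 1.26 CPM in NPY-labelled tumours and 3.21 CPM in control tumours, against 32.8 CPM in cortex. The gamma B sums of control tumours and cortex overlapped on this scale, and not on the deposited scale.

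In the other tumour groups, too, the alpha members had the smallest share of their cortex sum, 3.71% in ETV5 tumours and 3.84% in NPY-labelled tumours. ETV5 tumours summed to 271 ± 21.97 CPM over all members and NPY-labelled tumours to 198 ± 38.6 CPM. Alpha members made 1.21 ± 0.894 CPM in ETV5 tumours and 1.26 ± 0.422 CPM in NPY-labelled tumours. The beta sum was 97.6 ± 24.2 CPM in ETV5 tumours and 48.5 ± 12.3 CPM in NPY-labelled tumours, the lowest of the 4 groups. Gamma A stood at 38.8 ± 6.59 CPM in ETV5 tumours and 29.2 ± 0.806 CPM in NPY-labelled tumours, and gamma B at 19.5 ± 1.20 CPM in ETV5 tumours and 19.4 ± 2.81 CPM in NPY-labelled tumours. The C-type members summed to 114 ± 5.66 CPM in ETV5 tumours and 99.95 ± 27.3 CPM in NPY-labelled tumours. NPY-labelled tumours and cortex stand in tables that were scaled separately and were not tested against each other.

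Limma was fitted over all genes of the table, and a gene is said to be called when its Benjamini-Hochberg adjusted p was under 0.05. Of the 58 members, 50 had enough reads to be tested in control tumours against cortex. Of these, 30 fell and 1 rose, where over all 14621 genes tested 36.2% were called lower and 35.7% higher. Control and cortex libraries did not overlap for 31 members on the lower side and 2 on the higher side, where over all genes these were 38.9% and 38.3%. The median log2 fold change was -1.02 over the tested members and -0.0032 over all genes. A filter on low reads bears on these counts: 15 of the 50 passed it in all 3 cortex libraries and not in all 3 control tumour libraries, so that they were likely to be lower, and 12 of the 30 falls are theirs. Among the 34 members that passed in all 3 control tumour libraries, 18 fell and 1 rose.

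Bulk tissue cannot show whether fewer cells of a type or less RNA per cell lowered a level. All 16 pan-neuronal markers (such as Snap25, Syt1 and Rbfox3) also fell in control tumours against cortex, with a median log2 fold change of -3.30, and their summed level was 869 to 1702 CPM in control tumours and 10080 to 10830 CPM in cortex. All 16 were detected in every library. The 12 markers of cortical excitatory neurons and the 12 of GABA interneurons fell as well, with medians of -3.66 and -3.76. Other cell types differed too: all 10 oligodendrocyte markers fell (median -2.67), and of 10 astrocyte markers 7 fell and 2 rose. Of 10 microglia markers 9 rose and 1 fell, and of 8 meningeal fibroblast markers 7 rose and 1 fell. Of 10 radial glia markers 7 rose and 3 fell. Of 8 tested ependymal markers 5 fell and 1 rose, and of 8 oligodendrocyte precursor markers 3 rose and 3 fell. Over all genes 36.2% were called lower and 35.7% higher. The part of these cells in the protocadherin levels was not tested.

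The alpha members were the most depleted, with a median log2 fold change of -3.34 over the 7 tested, all of which fell. None of these 7 had all 3 control tumour libraries past the filter, so the count says little beside the levels. Pcdha3 (chromosome 18, 36946105 to 37187657, plus strand) had 0, 0.149 and 0.443 CPM in ETV5 tumours and 0.243, 0.122 and 0.0954 CPM in NPY-labelled tumours. It had 0.318, 0.220 and 0.160 CPM in control tumours, against 6.45, 5.87 and 5.15 CPM in cortex. All tumour libraries lay below all cortex libraries, and the log2 fold change in control tumours was -4.21 (SE 0.38, limma adjusted p = 1.753e-05), the largest fall of any tested member. The tumour values rest on few reads: 6 reads in the ETV5 group, 4 in the NPY-labelled group and 6 in the control group.

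Pcdha12 (37020149 to 37187657) was the most abundant alpha member in cortex, at 7.12, 6.71 and 6.68 CPM. It stood at 0, 0.598 and 0.177 CPM in ETV5 tumours, at 0.243, 0 and 0 CPM in NPY-labelled tumours and at 0.424, 0.550 and 0.958 CPM in control tumours. The groups did not overlap, with a log2 fold change of -3.39 (SE 0.36) for control tumours against cortex. Pcdha2 (36939205 to 37187657) had 0, 0 and 0.354 CPM in ETV5 tumours, 0.243, 0 and 0.191 CPM in NPY-labelled tumours and 0.106, 0.330 and 0.479 CPM in control tumours, against 3.63, 3.86 and 3.62 CPM in cortex, a log2 fold change of -3.40 (SE 0.46). The other 4 tested, Pcdha5, Pcdha9, Pcdha10 and Pcdha11, had log2 fold changes between -3.34 and -2.76. Pcdha1 and Pcdha8 were not tested. Their cortex means were 1.49 and 0.830 CPM, and they had 0 reads in all ETV5 libraries. Against the limit of 3 reads over that group, Pcdha1 was at least 12.4-fold lower and Pcdha8 at least 7.05-fold lower in ETV5 tumours than in cortex, counting error only.

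Pcdha4, Pcdha6 and Pcdha7 were listed at 0 in all 12 libraries, cortex included. RefSeq places longer genes over these loci under the synonyms Pcdha4-g, Pcdha6-g and Pcdha7-g, which reach from 36952648, 36967631 and 36973802 to 37841873, the far end of the gamma cluster. A row named Pcdha7-g held 0.269, 0.335 and 0.278 CPM in cortex and 0 in all tumours. Whether overlap with these loci set the zeros was not tested. The alpha members share 53.3% to 91.4% of their exon bases with other genes in GENCODE M21, so reads of the constant exons could be lost or split by the counting, whose tool is not given in the sources used here.

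Among the C-type members 4 of 5 fell and Pcdhgc3 did not, where 36.2% of all genes were called lower. Pcdhac1 (37090013 to 37187657) had 0 reads in all ETV5 libraries, 0, 0.122 and 0.191 CPM in NPY-labelled tumours, 0, 0.1101 and 0.638 CPM in control tumours, and 4.70, 2.68 and 3.20 CPM in cortex. Every tumour library lay below every cortex library. In control tumours its log2 fold change was -3.77 (SE 0.65, limma adjusted p = 0.000856). In ETV5 tumours it was at least 30.7-fold lower than in cortex, against the limit of 3 reads over the group. Pcdhac2 (37143503 to 37187657), which in mice is needed for the even spacing of serotonergic axons, had 0.656, 2.24 and 1.59 CPM in ETV5 tumours and 1.94, 2.92 and 4.01 CPM in NPY-labelled tumours. It had 1.91, 3.30 and 6.70 CPM in control tumours, against 28.3, 29.4 and 26.4 CPM in cortex, with a log2 fold change of -3.13 (SE 0.39). The tumour groups overlapped each other and lay below cortex.

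Pcdhgc5 (37819513 to 37841873) had 11.7, 18.8 and 7.97 CPM in ETV5 tumours and 11.8, 5.72 and 7.25 CPM in NPY-labelled tumours. It had 15.8, 26.7 and 21.1 CPM in control tumours, against 75.9, 76.0 and 65.4 CPM in cortex. Tumours and cortex stood far apart, and the log2 fold change in control tumours was -1.97 (SE 0.20, limma adjusted p = 3.978e-05). Pcdhgc4 (37815079 to 37841873), the isoform needed for neuronal survival in mice, had 7.09, 3.74 and 5.93 CPM in ETV5 tumours and 6.07, 5.36 and 4.77 CPM in NPY-labelled tumours. It had 2.65, 8.37 and 5.90 CPM in control tumours, against 11.3, 8.05 and 9.05 CPM in cortex, where control replicate 2 lay above cortex replicate 2 on this scale. By the deposited scale the groups did not overlap and the member passed narrowly, with a log2 fold change of -1.03 (SE 0.40, limma adjusted p = 0.0461). It lost its call under 11 of 15 alternatives, over which the adjusted p ranged from 0.0115 to 0.138.

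Pcdhgc3 (37806364 to 37841873), reported to act in dendrite branching and Wnt signalling, had 88.2, 93.3 and 101 CPM in ETV5 tumours and 99.45, 54.5 and 95.8 CPM in NPY-labelled tumours. It had 91.7, 96.0 and 100.4 CPM in control tumours, against 77.4, 77.5 and 64.9 CPM in cortex. On this scale control and ETV5 tumours lay above all cortex libraries, while NPY-labelled replicate 2 lay below them. By the deposited scale control tumours still lay above all cortex libraries, but ETV5 tumours and cortex overlapped. The log2 fold change of 0.22 (SE 0.12) in control tumours did not pass (limma adjusted p = 0.125). It passed at 0.39 (adjusted p = 0.0144) when values were scaled to total reads, a choice made after the data were seen, which also moved the median of all genes to 0.17. Of its exon bases 38.5% are shared with other genes, and 1559 lie opposite exons on the other strand. Whether the counting used strand is not stated.

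**Figure D2:**
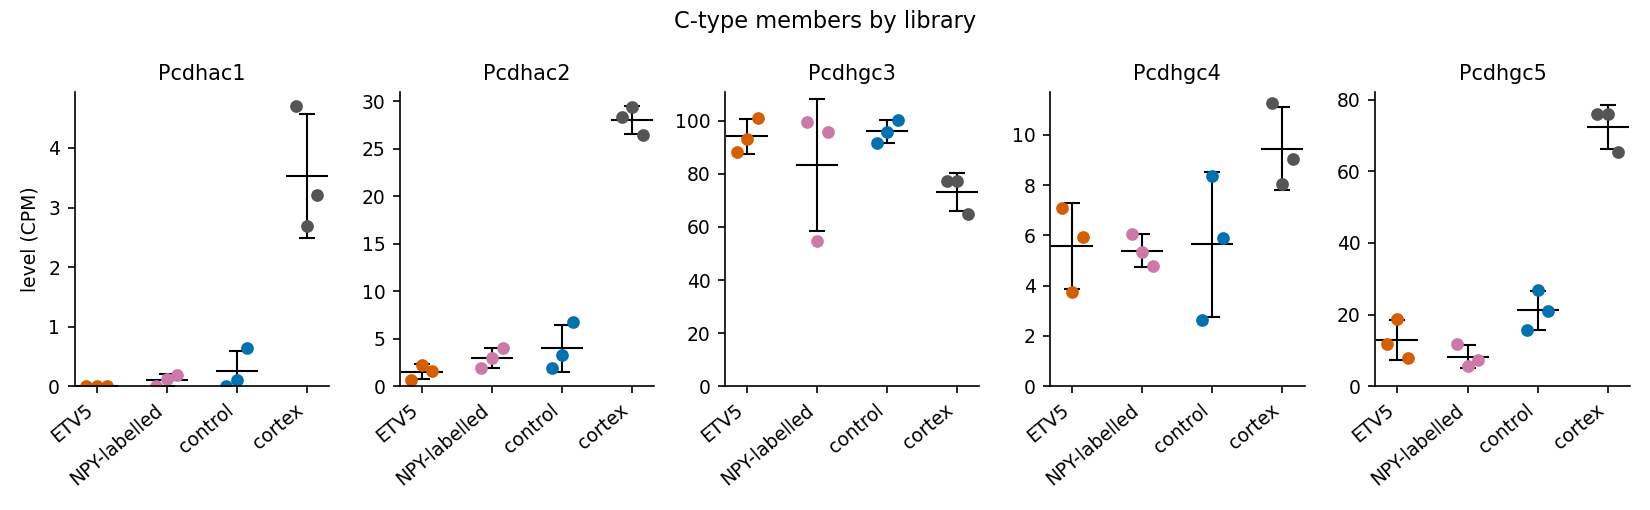
Level of each C-type member in CPM (vertical axes from 0, each with its own scale) in the 3 libraries of each group; points are libraries, the line is the mean and the bar is the SD. Pcdhac1, Pcdhac2 and Pcdhgc5 lie below all cortex libraries in every tumour, whereas Pcdhgc3 stands at 91.7 to 100.4 CPM in control tumours, above the 64.9 to 77.5 CPM of cortex.

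With the rest reduced, Pcdhgc3 took a larger part of the member reads in tumours. It held 31.4% to 39.0% of them in ETV5 libraries, 35.5% to 45.1% in NPY-labelled libraries, 31.3% to 36.0% in control tumours and 14.5% to 17.4% in cortex. Per kilobase of exon not shared with another gene it was the most abundant member in each group, at 27.9 CPM per kb in ETV5 tumours, 24.6 in NPY-labelled tumours, 28.4 in control tumours and 21.7 in cortex. Pcdhgc5 came next in cortex at 15.7 CPM per kb and in control tumours at 4.602 CPM per kb. The median member stood at 0.655 CPM per kb in ETV5 tumours, 0.490 in NPY-labelled tumours, 0.799 in control tumours and 1.502 in cortex. This scale is a description, since the shared constant exons are left out of the length, while how their reads were counted is not known. The effective number of members (the exponential of the Shannon entropy of their read shares) was 16.8 to 17.6 in ETV5 tumours, 12.6 to 18.4 in NPY-labelled tumours, 18.3 to 20.9 in control tumours and 27.6 to 31.5 in cortex.

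Beta members had a wide range of changes. Of 20 tested, 12 fell, 1 rose and 7 were not called, with a median log2 fold change of -0.92. Over all genes 36.2% were called lower and 35.7% higher. The 3 deepest falls, picked out after their values were seen, were Pcdhb13 at -2.18 (SE 0.32), Pcdhb12 at -2.10 (SE 0.27) and Pcdhb11 at -1.86 (SE 0.36). Pcdhb22 (37517871 to 37524479), the last beta gene before the gamma cluster, went the other way. It had 4.855, 9.27 and 10.9 CPM in ETV5 tumours and 3.89, 7.91 and 3.53 CPM in NPY-labelled tumours. It had 11.1, 11.9 and 11.97 CPM in control tumours, against 6.31, 5.87 and 5.99 CPM in cortex. All control libraries were above all cortex libraries, and it rose by 0.76 on the log2 scale (SE 0.19, limma adjusted p = 0.0068). The call was lost when all groups of the table shared the fit (adjusted p = 0.0577), the highest of 15 alternatives, whose lowest was 0.00245.

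Pcdhb17 (37484795 to 37489454) had the highest mean CPM of the beta members over all libraries. It had 24.8, 35.4 and 7.70 CPM in ETV5 tumours and 12.6, 4.38 and 11.3 CPM in NPY-labelled tumours. It had 9.74, 13.7 and 19.6 CPM in control tumours, against 14.2, 13.8 and 13.9 CPM in cortex. Control tumours straddled cortex, and the log2 fold change was -0.19 (SE 0.25, limma adjusted p = 0.503). In ETV5 tumours 2 of 3 libraries were above every cortex library and the third was below, and limma gave 0.25 on the log2 scale (SE 0.52, adjusted p = 0.687). Leaving out ETV5 replicate 3, whose code has the other prefix, gave 0.87, which passed (limma adjusted p = 0.0181). Pcdhb1, the first beta gene, had 0 reads in control tumours and 5 in cortex, and like Pcdhb6 it was not tested.

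Gamma A and gamma B members lay nearer to cortex. Of 12 gamma A members tested, 5 fell, with a median log2 fold change of -0.65 and a range from -1.39 for Pcdhga10 to -0.24 for Pcdhga9. Of 6 gamma B members tested, 2 fell, Pcdhgb7 and Pcdhgb6, with a median of -0.47. The shares called lower, 41.7% of gamma A and 33.3% of gamma B, lay near the 36.2% of all genes. No member of either set was called higher, where 35.7% of all genes were. Pcdhgb8 had 0 to 7 reads in a group and was not tested. By mean CPM over the 12 libraries, not scaled to length, the highest gamma A members were Pcdhga7 (37714764 to 37841873) and Pcdhga6 (37707039 to 37841873). Pcdhga7 had 2.36, 8.97 and 9.12 CPM in ETV5 tumours, 4.98, 3.90 and 7.35 CPM in NPY-labelled tumours, 8.90, 8.37 and 3.19 CPM in control tumours and 10.2, 5.53 and 6.54 CPM in cortex. The groups overlapped, with a log2 fold change of -0.38 (SE 0.43, limma adjusted p = 0.457) in control tumours. Pcdhga6 had 3.805, 9.27 and 6.20 CPM in ETV5 tumours, 5.71, 1.46 and 2.86 CPM in NPY-labelled tumours, 4.34, 5.06 and 6.38 CPM in control tumours and 7.25, 8.05 and 6.54 CPM in cortex. Its fall in control tumours was narrow, at -0.64 (SE 0.25, adjusted p = 0.0434), and was lost under 11 of 15 alternatives.

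Pcdhgb7 (37751600 to 37841873) had 7.22, 6.28 and 4.16 CPM in ETV5 tumours and 3.28, 3.41 and 3.62 CPM in NPY-labelled tumours. It had 3.92, 3.63 and 1.92 CPM in control tumours, against 9.40, 7.88 and 6.26 CPM in cortex. Control tumours lay below all cortex libraries, with a log2 fold change of -1.49 (SE 0.35, limma adjusted p = 0.00456). Pcdhgb2 (37689828 to 37841873) had 2.10, 4.63 and 3.45 CPM in ETV5 tumours and 10.2, 2.19 and 3.53 CPM in NPY-labelled tumours. It had 3.60, 6.82 and 3.99 CPM in control tumours, against 4.43, 2.01 and 5.85 CPM in cortex. The groups overlapped and the log2 fold change was 0.12 (SE 0.44, adjusted p = 0.812).

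**Figure D3:**
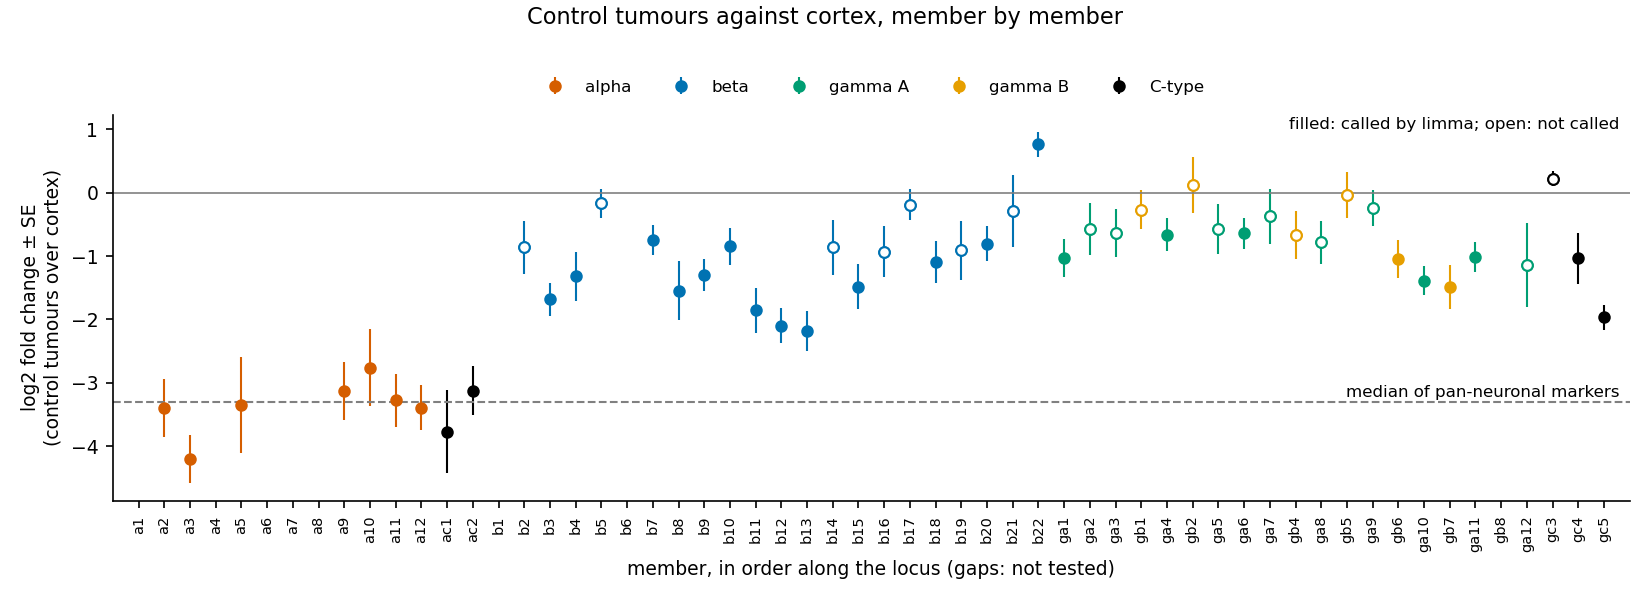
Log2 fold change of control tumours over cortex (vertical axis, ± SE from limma) for the 50 tested members in their order along the locus (horizontal axis); colours give the set, filled points were called and open points were not. Alpha members, Pcdhac1 and Pcdhac2 lie between -4.21 and -2.76, near the pan-neuronal median of -3.30 (dashed line), whereas most beta and gamma members lie between -2.18 and 0.12, with Pcdhb22 at 0.76 and Pcdhgc3 at 0.22.

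The order along the chromosome, which the choice of members did not use, went with the size of the change only in part. The falls of over 2.7 on the log2 scale were all in the alpha cluster, whose Pcdhac1 and Pcdhac2 are C-type. Within the beta cluster Spearman's rho between order and log2 fold change was 0.31 over 20 genes, and within gamma A and gamma B it was -0.47 over 18. These are descriptions across neighbouring genes that share libraries and, in the gamma cluster, exons.

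**Figure D4:**
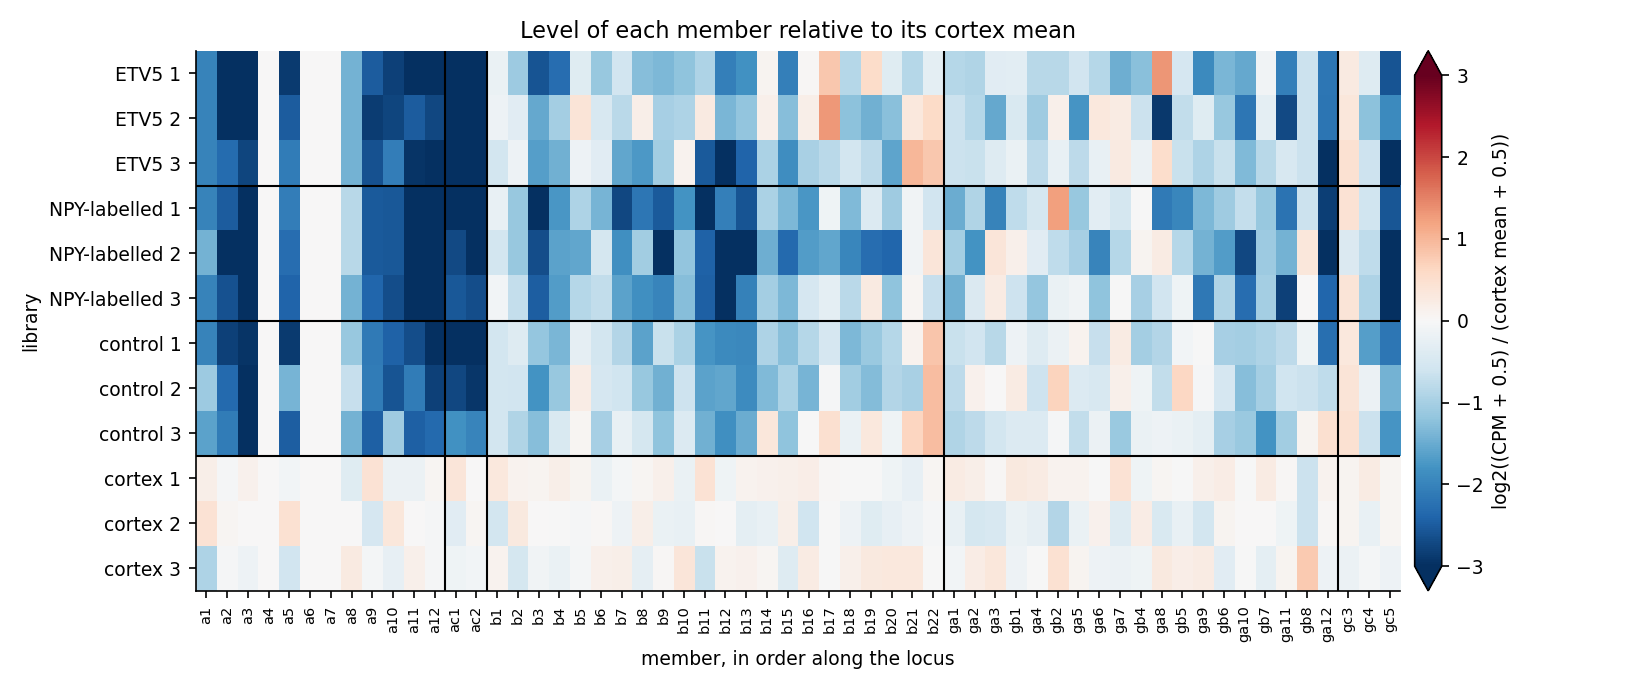
Level of each of the 58 members (columns, in order along the locus) in each of the 12 libraries (rows, by group) as the log2 of its CPM over its cortex mean, each with 0.5 CPM added; red is above and blue below the cortex mean. The 9 alpha members with reads, Pcdhac1 and Pcdhac2 are blue in all tumour libraries, Pcdha4, Pcdha6 and Pcdha7 are blank at 0 reads throughout, Pcdhgc3 is above cortex in 8 of 9 tumour libraries, and beta and gamma members differ between libraries of the same group.

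Tumours of the same group differed widely in single members. Among members with at least 30 reads in a group, the highest library exceeded the lowest more than 3-fold for 11 of 37 in ETV5 tumours (29.7%, against 19.0% of all genes over the same minimum, not matched for reads), 9 of 33 in NPY-labelled tumours (27.3%, against 14.2%), 6 of 41 in control tumours (14.6%, against 7.54%) and 1 of 51 in cortex (1.96%, against 1.84%). The members have fewer reads than most genes. Their median coefficient of variation in ETV5 tumours was 41.2% where counting alone gives 17.5%, and over all genes it was 25.2% where counting gives 6.14%. In cortex the members' median was 17.5%, where counting gives 15.4%. Examples chosen after their values were seen are Pcdhga8, with 11.7, 0.149 and 6.46 CPM in the 3 ETV5 tumours, and Pcdhga12, with 0.953, 3.63 and 9.26 CPM in the 3 control tumours. Pcdhb11 had 3.67, 8.97 and 0.886 CPM in the 3 ETV5 tumours. In cortex Pcdhga8 ranged from 3.02 to 5.43 CPM and Pcdhga12 from 5.85 to 6.98 CPM. Pcdhb11 varied more there, from 4.46 to 10.2 CPM.

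ETV5 tumours were also set against cortex. The cortex libraries are those of the comparison with control tumours, so the fold changes of both share them. Of 50 members tested, 29 fell and none rose, where 32.0% of all 14493 genes were called lower and 31.8% higher. With edgeR no member rose and 28 fell, where that tool called 32.7% of all genes higher and 30.8% lower. With DESeq2 no member rose and 30 fell, where it called 33.9% higher and 32.4% lower. Without cortex replicate 1 the count of falls was 18, and the share of all genes called lower was 26.3%. Groups did not overlap for 33 members on the lower side, where over all genes it was 36.3%. In this comparison 24 of the 50 passed the filter in cortex and not in all 3 ETV5 libraries, among them 17 of the 29 that fell. The 7 tested alpha members fell with a median of -4.29, 9 of 20 beta members with a median over all tested of -1.16, 7 of 12 gamma A members with -1.09 and 2 of 6 gamma B members with -0.76. Pcdha12 changed by -4.64 (SE 0.64), Pcdha3 by -4.57 (SE 0.59), Pcdhac2 by -4.43 (SE 0.44) and Pcdhgc5 by -2.75 (SE 0.30), each called by limma. Pcdhgc4 fell by 0.96 on the log2 scale (SE 0.31, limma adjusted p = 0.0328) and lost its call under 6 of 15 alternatives. Pcdhgc3 was at 0.18 (SE 0.14, adjusted p = 0.309) and passed with total-read scaling only (adjusted p = 0.0468).

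The effect of added ETV5 was measured against control tumours. No member was called, of 38 tested, and limma called 0.0% of all 14382 genes in either direction. None of the 38 had an unadjusted p under 0.05, where 944 genes had one. With edgeR no gene was called, and DESeq2 called 17 genes higher (0.118%) and 59 lower (0.41%), none of them a member. ETV5 and control libraries did not overlap for 4 members on the lower side and 1 on the higher side, where over all genes these were 7.48% and 6.26%. The median log2 fold change was -0.25 over the tested members and -0.02 over all genes. No alpha member had enough reads to be tested.

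The lowest p-values were those of Pcdhgc5, Pcdhgb7 and Pcdhga9, each with a limma adjusted p of 0.732. Pcdhgc5 was lower in the mean, with a log2 fold change of -0.78 (SE 0.37), and ETV5 replicate 2 lay inside the range of the control tumours. Pcdhgb7 was higher in all 3 ETV5 libraries than in any control tumour, with a log2 fold change of 0.89 (SE 0.42). Pcdhga9 (37736936 to 37841870) had 1.31, 4.78 and 3.10 CPM in ETV5 tumours, against 6.25, 6.16 and 5.11 CPM in control tumours, beside 7.12, 4.19 and 7.66 CPM in cortex. ETV5 over control tumours gave a log2 fold change of -1.07 (SE 0.51). Without ETV5 replicate 3, which leaves libraries of the DS prefix only, the median over the tested members was -0.32 and no member was called. The pan-neuronal markers had a median level of 1.56%, 8.72% and 3.92% of cortex in ETV5 tumours, against 10.1%, 7.76% and 16.2% in control tumours. The alpha sums were 0.262, 1.34 and 2.04 CPM in the same ETV5 tumours, against 1.80, 3.85 and 3.99 CPM in the control tumours. Other cell types also differed: the oligodendrocyte markers had a median level of 1.95%, 7.67% and 11.4% of cortex in ETV5 tumours, against 24.5%, 9.88% and 21.1% in control tumours. Median log2 fold changes of ETV5 over control tumours were -1.46 for pan-neuronal, -1.56 for oligodendrocyte, -1.20 for meningeal fibroblast and -0.87 for microglia markers. That of the oligodendrocyte precursor markers was -0.11. The part of any of these cells in the protocadherin levels was not tested.

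NPY-labelled tumours held the fewest beta and gamma A transcripts. The beta sums were 48.7, 36.2 and 60.7 CPM in NPY-labelled tumours, against 77.4, 80.2 and 117 CPM in control tumours. The gamma A sums were 28.3, 29.7 and 29.7 CPM in NPY-labelled tumours, against 44.9, 49.8 and 47.2 CPM in control tumours. Neither pair of groups overlapped. Yet no single member was called by limma, of 36 tested, where 4.31% of all 14425 genes were called lower and 0.728% higher. An unadjusted p under 0.05 was found for 10 members, where 23.5% of all genes had one. By edgeR no member was called, where it called 0.541% of all genes higher and 4.21% lower. By DESeq2 6 fell (Pcdhb3, Pcdhb5, Pcdhb7, Pcdhb9, Pcdhga9 and Pcdhgc5), where that tool called 8.51% of all genes lower and 4.2% higher. NPY-labelled and control libraries did not overlap for 13 of the 36 members, all on the lower side, 9 of them among the 15 tested beta members, where over all genes 15.8% lay on each side. Of the 36, 13 passed the filter in the control tumours and not in all 3 NPY-labelled ones. The median log2 fold change was -0.55 over the tested members and 0.04 over all genes.

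Pcdhga9 had the lowest p. It stood at 2.19, 2.07 and 1.05 CPM in NPY-labelled tumours, against 6.25, 6.16 and 5.11 CPM in control tumours, a log2 fold change of -1.64 (SE 0.38, limma adjusted p = 0.0612). Pcdhgc5 followed with a log2 fold change of -1.30 (SE 0.34, limma adjusted p = 0.0784), and each NPY-labelled library lay below each control library. Pcdhb7 (37341702 to 37345202) had 6.56, 5.53 and 3.10 CPM in ETV5 tumours and 9.67, 9.06 and 11.6 CPM in cortex. It had 1.09, 2.44 and 2.96 CPM in NPY-labelled tumours, against 5.29, 6.49 and 8.62 CPM in control tumours, a log2 fold change of -1.60 (SE 0.44, limma adjusted p = 0.0895). Over the alternatives the adjusted p ranged from 0.00586 to 0.183 for Pcdhga9, from 0.0110 to 0.221 for Pcdhgc5 and from 0.0212 to 0.262 for Pcdhb7. Pcdhb22, at -1.18 (SE 0.36, adjusted p = 0.1097), was called only without NPY-labelled replicate 2 (adjusted p = 0.0332). Pcdhgc3 at -0.17 (SE 0.24), Pcdhac2 at -0.21 (SE 0.52) and Pcdhgc4 at 0.16 (SE 0.45) did not pass. Replicate 2 had the lowest sum of all members among the NPY-labelled tumours, at 154 CPM beside 220.5 and 221 CPM.

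**Figure D5:**
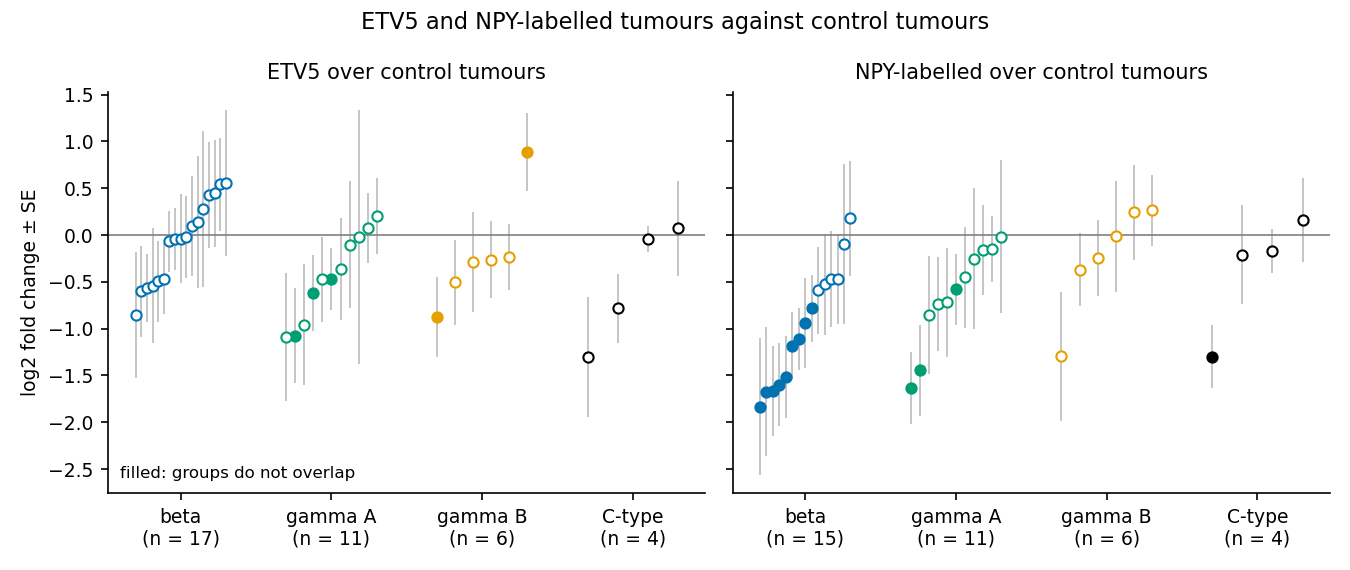
Log2 fold change (vertical axis, ± SE from limma) of ETV5 tumours (left) and NPY-labelled tumours (right) over control tumours for each tested member, by set and in rising order within it; filled points are members whose 2 groups of libraries do not overlap. No point was called by limma; the filled points on the right are 9 beta, 3 gamma A and 1 C-type member, all below 0. The panels share their control tumours.

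Neuronal transcripts were lower in the same comparison. The pan-neuronal markers had a median level of 1.70%, 1.57% and 1.65% of cortex in NPY-labelled tumours, against 10.1%, 7.76% and 16.2% in control tumours, and limma called 11 of the 16 lower. That count moved with single libraries: it was 0 without control replicate 2, 5 without control replicate 1 or NPY-labelled replicate 1, and 6 without control replicate 3. It was 14 without NPY-labelled replicate 2 and 11 without NPY-labelled replicate 3. Over all genes limma called 622 lower with all libraries, 136 without control replicate 1 and 120 without NPY-labelled replicate 1. It called 77 without control replicate 3, and 1 of 14620 without control replicate 2. Without NPY-labelled replicate 2 or 3 it called 502 or 471. The summed level of the pan-neuronal markers was 212 to 309 CPM in NPY-labelled tumours, against 869 to 1702 CPM in control tumours, with no marker at 0. Of the 10 astrocyte markers 4 were called lower, against 0 when any 1 control library was left out and 1 without NPY-labelled replicate 1. The astrocyte count was 4 without NPY-labelled replicate 2 and 5 without NPY-labelled replicate 3. Of 12 cortical excitatory neuron markers 7 were called lower (0 to 7 with 1 library left out). Of 8 tested GABA interneuron markers 4 were called lower (0 to 3). All 10 oligodendrocyte markers had negative log2 fold changes (median -1.73), with 1 called lower (0 to 6). All 10 endothelial markers were negative too (median -0.865), with 1 called lower (0 to 4). Of 10 microglia markers 9 were negative and 1 positive (median -0.25), with 0 called. The part of these cells in the protocadherin values was not tested.

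Genes of 2 general lists, cohesin with CTCF and DNA methylation with silencing, changed between control tumours and cortex in both directions. Whether each of them acts on the clusters was not tested. Over all genes 35.7% were called higher and 36.2% lower in this comparison, which are the shares to set beside the counts of these lists. Of 11 measured cohesin and CTCF genes, 8 rose and 2 fell in control tumours. Named here for their roles, Ctcf, which binds beside the variable exons, stood at 90.01 ± 3.21 CPM in control tumours and 64.7 ± 6.04 CPM in cortex, and Rad21, a cohesin core subunit, at 238 ± 2.53 CPM in control tumours and 148.5 ± 7.90 CPM in cortex. Cdca5, which holds cohesin on replicated chromosomes, rose by 4.51 on the log2 scale (SE 0.36), Stag1 by 0.90 (SE 0.13) and Nipbl, the cohesin loader, by 0.68 (SE 0.11). Pds5b fell by 1.14 on the log2 scale (SE 0.13), and Mau2 by 0.69 (SE 0.12). Of 14 genes of DNA methylation and silencing, 5 rose and 4 fell, close to the shares of all genes. Uhrf1, a cofactor of maintenance methylation, changed by 4.95 (SE 0.26), Rest, a repressor of neuronal genes, by 2.94 (SE 0.25), and Dnmt1, the maintenance methyltransferase, by 1.16 (SE 0.14). Tet1, a methylcytosine oxidase, changed by -2.37 (SE 0.26). In ETV5 or NPY-labelled tumours against control tumours limma called no gene of these lists.

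The protocadherins outside the clusters had more falls than rises. Of 12, 10 fell and 2 rose in control tumours against cortex, with a median log2 fold change of -1.59. Over all genes 36.2% were called lower and 35.7% higher in this comparison, the shares to set beside the counts of the lists below too. Pcdh20 changed by -3.70 (SE 0.41), Pcdh8 by -3.54 (SE 0.38) and Pcdh11x by -2.98 (SE 0.37), while Pcdh12, a protocadherin of endothelial cells, changed by 3.45 (SE 0.47) and Pcdh18 by 1.81 (SE 0.25). Of the 10 endothelial markers 8 also rose. Of 15 classical cadherins and catenins, 5 rose and 9 fell, among them Cdh3 at 5.43 (SE 0.57), Cdh1 at 3.08 (SE 0.54) and Cdh5, the endothelial cadherin, at 2.56 (SE 0.17), and on the other side Cdh8 at -4.40 (SE 0.47) and the neuronal catenins Ctnna2 at -3.11 (SE 0.21) and Ctnnd2 at -2.68 (SE 0.17). Of 15 signalling partners, 3 rose and 10 fell. Wasf1, the WAVE regulatory complex subunit typical of neurons, changed by -3.71 (SE 0.17), and Ptk2b, a kinase held in check by gamma protocadherins, by -2.59 (SE 0.14). Wasf2, the more widely expressed counterpart of Wasf1, changed by 2.53 (SE 0.19). In NPY-labelled against control tumours Pcdh10 fell by 1.79 (SE 0.17), Ctnnd2 by 2.21 (SE 0.27), Wasf1 by 1.38 (SE 0.26) and Marcks, an actin-linked substrate of protein kinase C, by 0.79 (SE 0.12), all on the log2 scale and called by limma. Leaving out each of the 6 libraries in turn kept the call of Pcdh10 in 5 fits (lost without control replicate 2) and that of Ctnnd2 in 4 (lost without control replicate 2 or 3). Marcks was called in 2 of these fits, those without NPY-labelled replicate 2 or 3, and Wasf1 in 0, with limma adjusted p-values of 0.0571 to 0.118.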

How the data were processed

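The 2 deposited tables hold a normalized signal per gene and library, which the authors made by scaling each library's read counts with a single factor, as the values show. The submitters' processing notes name STAR 2.5.0a, DESeq2 1.30.1, FastQC 0.11.7, MultiQC 1.6 and mm10; the counting tool, annotation and strand setting were not given in the sources used here. Of these tables, the first holds cortex, control and ETV5 libraries, the second control and NPY-labelled libraries. Per the labels' protocols, 300 ng of total RNA went into stranded mRNA libraries sequenced as paired ends.

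Division by the value of 1 read gave whole reads for 100% of the deposited values (tolerance 0.01 read). Control reads were identical in both tables, which were scaled separately, so NPY-labelled tumours and cortex were not tested against each other. Limma 3.58.1 (R 4.3.3; trend, robust) was run two-sided on log2(deposited signal + 1) after the edgeR filter (10 reads in 3 libraries, 15 in total), with Benjamini-Hochberg adjustment over all genes tested. The plan named edgeR for raw counts; as the deposited values are not counts, edgeR 4.0.16 and DESeq2 1.42.0 were run on recovered reads as alternatives. The others were pseudocounts of 0.5 and 5, no filter, TMM scaling, a fit over all groups of the table, a replicate block, leaving out each library, and total-read scaling. The fits were also run on simulated data in which all libraries shared the same dispersion. As the tumours varied more than cortex, that run does not show how the fits perform on these data. Members, gene lists and tests were chosen with earlier results of these data known. Values per library are given for the C-type members, the 2 members of each other set with the highest mean CPM, and in each comparison the 3 largest called rises and falls or, with none called, the 3 lowest p-values. Members were matched by symbol to GENCODE M21 (56 of 58) for gene coordinates and exon overlap. Dates stood in place of 27 symbols, and 2 names were repeated. Lower bounds on fold changes use 3 reads over the group and cover counting error only. A gene of the DNA methylation and silencing list is counted there and is not reported here by name.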

Additional observations from a re-analysis of the deposited data

How the results depend on the processing

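The counts of members called lower against cortex stayed within 1.5 times under the alternatives that keep all libraries, and no alternative changed the sign of a median over the tested members. In control tumours against cortex 0 members rose when all groups shared the fit, where 21 fell (32.8% of all genes were then called higher and 31.5% lower), and 2 rose (Pcdhb22 and Pcdhgc3) with total-read scaling, where 24 fell (41.1% and 31.3% of all genes). That scaling, chosen after the data were seen, moved the median of all genes to 0.17 in control and 0.19 in ETV5 tumours against cortex, and 1 member (Pcdhgc3) rose and 24 fell in the second (37.1% of all genes higher and 28.1% lower). In NPY-labelled against control tumours DESeq2 called 6 members lower, where it called 8.51% of all genes lower and 4.2% higher. The cause was not tested.

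The titles number the libraries 1 to 3 in each group. Same-numbered libraries correlated at -0.392 to 0.365 after removal of group means, and not every library correlated best with its own number, so the numbers were not taken as pairs. With the replicate block 29 members fell and 1 (Pcdhb22) rose in control tumours against cortex. Of all genes 34.9% were then called lower and 34.6% higher. In ETV5 tumours against cortex 24 fell, where 29.6% of all genes were called lower and 29.4% higher. None was called in ETV5 tumours against control tumours, where no gene was. None was called in NPY-labelled against control tumours either, where 1.71% of all genes were called lower and 0.125% higher.

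Leaving out 1 library gave 22 to 34 falls in control tumours against cortex, where 32.2% to 36.6% of all genes were called lower. In ETV5 tumours against cortex it gave 18 to 28 falls, where 26.2% to 33.2% of all genes were called lower. There were 0 to 1 rises there (Pcdhb17), where 26.4% to 32.5% of all genes were called higher. NPY-labelled against control tumours had 0 to 1 falls (Pcdhb22), where 0.00684% to 3.39% of all genes were called lower. Members near 0 changed sign. Against cortex, control tumours ranged from -0.42 to 0.0541 for Pcdhb17, -0.29 to 0.43 for Pcdhgb2 and -0.63 to 0.11 for Pcdhga7, and ETV5 tumours from -0.82 to 0.16 for Pcdhga7, -0.19 to 0.87 for Pcdhb17 and -0.059 to 0.56 for Pcdhb22. Against control tumours, ETV5 tumours ranged from -0.12 to 0.0234 for Pcdhgc3, -0.38 to 0.45 for Pcdhgc4, -0.59 to 0.54 for Pcdhga7 and -0.10 to 0.54 for Pcdhga6. NPY-labelled tumours ranged from -0.63 to 0.24 for Pcdhac2, -0.32 to 0.10 for Pcdhgc3, -0.64 to 0.0935 for Pcdhga7, -0.62 to 0.45 for Pcdhgb2, -0.30 to 0.53 for Pcdhgc4 and -0.063 to 0.44 for Pcdhgb7. Sign also turned for ETV5 against control tumours in Pcdhgc4 with DESeq2 (-0.0004) and Pcdhga7 with edgeR (0.0), and for NPY-labelled against control tumours in Pcdhgb2 with DESeq2 (0.20), edgeR (0.18) and a pseudocount of 5 (0.0053), and in Pcdhgc4 with edgeR (-0.024). Depth limits the alpha members most: their tumour values rest on 0 to 15 reads per member and group.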
